A study of Mus musculus with 4 samples.

Results

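The comparison described here set 1 library of N2A cells depleted of Ptbp2 against 1 library of N2A cells that had received a control shRNA. These are 2 of the 4 libraries of the series and were chosen by their labels alone. N2A is a mouse neuroblastoma cell line, a tumour line of the sympathetic neuron lineage that grows in culture. The cells of the Ptbp2 knockdown were transfected with an shRNA against Ptbp2, and those of the control with a control shRNA. Ptbp1 was not targeted in either. The other 2 libraries were a double knockdown, with shRNAs against Ptbp1 and Ptbp2, and a Ptbp1 knockdown. All were transfected for 5 h, cultured for 3 d, and sequenced as strand-specific poly(A) RNA with paired reads of 100 bases. Each group held 1 library of 1 cell line, and the number of shRNA sequences per target is not given in the sources used here. No spread between replicates could be measured, so no test across samples was run and no p-value is given. A gene or exon is called below when its difference passed a stated size, and intervals cover counting error only.

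Polypyrimidine tract-binding (PTB) proteins, the products of Ptbp1 and Ptbp2, attach to stretches of U and C in introns and exons and change which exons a precursor RNA keeps. Both often repress an exon when they bind upstream of it or inside it, and can favour inclusion when they bind downstream. Ptbp1 is made in most dividing cells, and Ptbp2 takes its place as neurons are born. Several of their known exons, among them those of Dlg4, Gabbr1 and Ptbp2 itself, shift the reading frame when left out, and the shortened RNA can then be removed by nonsense-mediated decay.

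The exons that carry the comparison are printed first. Shown are coding exons with a large difference in inclusion between the libraries, together with called exons of genes known to respond to PTB proteins. The sequences are those of GENCODE vM21 transcripts matched to each exon by structure, 5′ to 3′ on the sense strand. Capitals mark the alternative exon, and the 12 lower-case letters on each side are the ends of the neighbouring exons. "Lower" and "higher" give the direction in the Ptbp2 knockdown.
Epb41l2 63-nt exon, lower: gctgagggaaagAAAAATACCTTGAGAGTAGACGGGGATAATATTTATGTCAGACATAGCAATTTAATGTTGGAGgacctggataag
Lef1 84-nt exon, lower: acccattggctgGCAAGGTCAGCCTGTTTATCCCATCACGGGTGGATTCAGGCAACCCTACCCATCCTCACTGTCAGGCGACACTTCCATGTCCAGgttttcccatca
Dst 18-nt exon, lower: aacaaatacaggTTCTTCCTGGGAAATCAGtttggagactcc
Numa1 42-nt exon, lower: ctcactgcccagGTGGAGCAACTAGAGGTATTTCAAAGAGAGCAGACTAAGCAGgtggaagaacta
Git2 90-nt exon, lower: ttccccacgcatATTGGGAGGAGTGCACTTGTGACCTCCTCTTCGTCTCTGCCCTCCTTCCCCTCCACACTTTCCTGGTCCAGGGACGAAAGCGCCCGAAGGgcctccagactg
Gabbr1 151-nt exon, lower: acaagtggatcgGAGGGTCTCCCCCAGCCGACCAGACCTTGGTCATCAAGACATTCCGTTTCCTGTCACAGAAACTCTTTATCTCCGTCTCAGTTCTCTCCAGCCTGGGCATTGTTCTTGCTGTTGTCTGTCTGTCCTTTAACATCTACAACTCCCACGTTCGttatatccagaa
Dlg4 110-nt exon, lower: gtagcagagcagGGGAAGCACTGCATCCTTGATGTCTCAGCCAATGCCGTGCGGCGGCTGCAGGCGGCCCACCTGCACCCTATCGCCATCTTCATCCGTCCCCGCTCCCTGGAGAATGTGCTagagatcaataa
Exoc7 93-nt exon, lower: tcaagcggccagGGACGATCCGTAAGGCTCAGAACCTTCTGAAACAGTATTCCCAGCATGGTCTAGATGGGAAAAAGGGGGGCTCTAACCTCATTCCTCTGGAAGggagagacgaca
Ptbp2 34-nt exon, lower: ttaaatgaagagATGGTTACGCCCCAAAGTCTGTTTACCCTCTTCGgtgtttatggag
Sh3glb1 39-nt exon, higher: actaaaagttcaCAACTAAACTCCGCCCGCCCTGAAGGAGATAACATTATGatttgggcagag
Mbnl2 54-nt exon, higher: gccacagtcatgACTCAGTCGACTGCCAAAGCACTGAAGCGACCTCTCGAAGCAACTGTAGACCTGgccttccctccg
Cadm1 33-nt exon, higher: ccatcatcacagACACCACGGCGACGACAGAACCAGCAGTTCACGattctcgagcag
Numb 147-nt exon, higher: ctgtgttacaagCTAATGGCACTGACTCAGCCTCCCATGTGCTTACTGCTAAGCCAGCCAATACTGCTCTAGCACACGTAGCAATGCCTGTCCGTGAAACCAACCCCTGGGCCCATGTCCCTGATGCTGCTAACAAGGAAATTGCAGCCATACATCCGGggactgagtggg
The lengths of 10 of these 13 exons, all but those of Gabbr1, Dlg4 and Ptbp2, are multiples of 3, so that leaving one out keeps the reading frame.

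Summed over the exons listed in the deposited splicing tables, the Ptbp2 knockdown had 243.7 M exon reads and the control had 259.7 M, while the double and Ptbp1 knockdowns had 259.2 M and 208.6 M. The Ptbp2 knockdown had 69.7 M reads on splice junctions and the control had 74.3 M. Gene levels are given as CPM, the exon reads of a gene per M reads of the scaled library, or as FPKM, which is also per length and was rescaled within each library. Both libraries carried markers of noradrenergic neuroblasts. Phox2a, a transcription factor of that lineage, stood at 80.1 FPKM in the Ptbp2 knockdown and 59.0 FPKM in the control, and Chgb, a granule protein, at 229 FPKM in the Ptbp2 knockdown and 257 FPKM in the control. Th, the first enzyme of catecholamine synthesis, was nearly absent, at 0.0987 FPKM in the Ptbp2 knockdown and 0.336 FPKM in the control. Summed over their marker lists, astrocyte, epithelial and immune genes reached 0.15, 0.39 and 1.09 CPM in the Ptbp2 knockdown, against 0.22, 0.16 and 0.68 CPM in the control. Fibroblast markers summed to 2.39 CPM in the Ptbp2 knockdown and 4.12 CPM in the control, with Lum and Thy1 listed at 0 FPKM in both. Endothelial, skeletal muscle, and oligodendrocyte and Schwann markers summed to 11.0, 5.27 and 30.4 CPM in the Ptbp2 knockdown, against 14.1, 3.88 and 30.5 CPM in the control. No astrocyte, epithelial or immune marker reached 1 CPM in either library. Passing 2-fold by exon reads were the fibroblast gene Pdgfra, at 1.61 CPM in the Ptbp2 knockdown and 3.62 CPM in the control, and the muscle gene Des, at 1.72 CPM in the Ptbp2 knockdown and 0.689 CPM in the control. The part of these genes in the differences below was not tested.

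Ptbp2 mRNA was lower in the library labelled as its knockdown. In bulk RNA, fewer cells that express a gene and less RNA per cell cannot be told apart, here and below. It stood at 10.8 FPKM (deposited 95% interval 10.1 to 11.6) in the Ptbp2 knockdown and 35.2 FPKM (32.9 to 37.5) in the control. By exon reads it was at 36.6 CPM in the Ptbp2 knockdown and 136 CPM in the control, a 3.69-fold lower level. The same gene was at 57.5 CPM in the double knockdown and 268 CPM in the Ptbp1 knockdown. Ptbp1, the ubiquitous family member, was not depleted, at 722 CPM in the Ptbp2 knockdown and 631 CPM in the control (log2 difference 0.19). Ptbp3, the remaining family member, was at 89.1 CPM in the Ptbp2 knockdown and 148 CPM in the control (log2 difference -0.73), which did not reach 2-fold. The partner proteins Raver1 and Matr3 and the related factors Hnrnpl, Hnrnpll and Pcbp2 differed by -0.14 to 0.05 on the log2 scale.

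**Figure D1:**
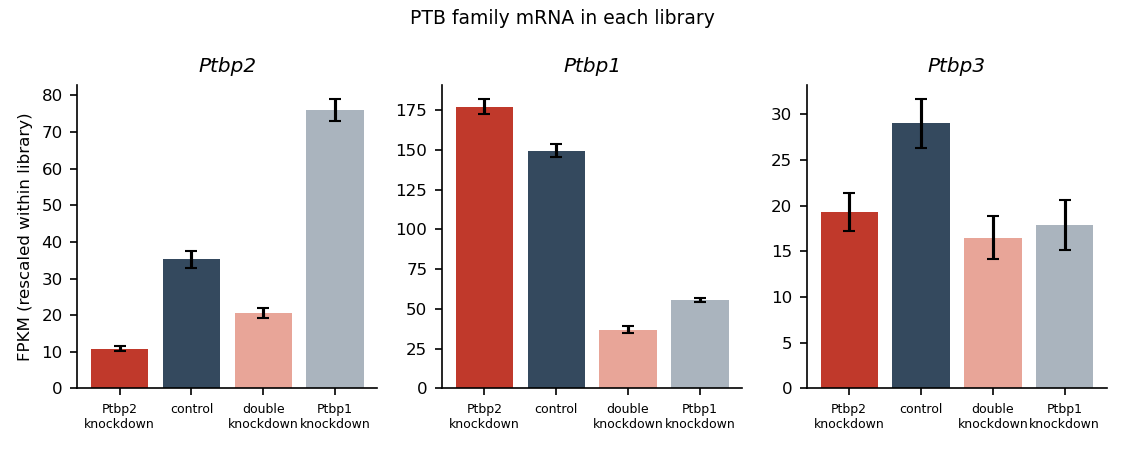
Level of Ptbp2, Ptbp1 and Ptbp3 mRNA in each library, in FPKM rescaled within the library, with the deposited 95% intervals as error bars. Each bar is 1 library. Ptbp2 was at 10.8 FPKM in the Ptbp2 knockdown and 35.2 FPKM in the control, while Ptbp1 was at 177 FPKM in the Ptbp2 knockdown and 149 FPKM in the control.

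Among genes, more were lower than higher. A gene was measured when it had at least 1 CPM of exon reads in either library, and called at a 2-fold difference in CPM. Of 10912 measured genes, 77 were called higher (0.706%) and 206 lower (1.89%) in the Ptbp2 knockdown. Over all of them the median log2 difference was 0.00 and 49.6% were below the control. When FPKM had to differ 2-fold in the same direction as well, 15 genes were higher (0.137%) and 82 lower (0.751%). Many of the genes called by exon reads alone had few reads, as the plot of gene levels shows.

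**Figure D2:**
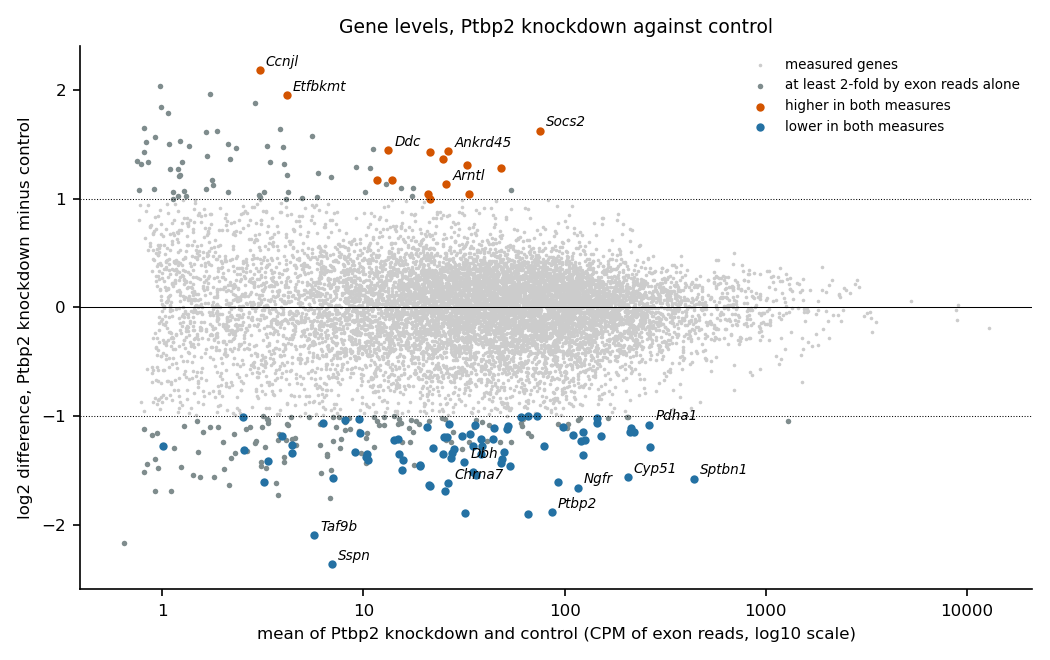
Log2 difference in CPM of exon reads, Ptbp2 knockdown minus control, against the mean of both libraries on a log10 axis, for 10912 measured genes. Orange and blue points are the 15 higher and 82 lower genes called by exon reads and FPKM, dark grey points passed 2-fold by exon reads alone, and dotted lines mark 2-fold.

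Among other splicing regulators, Mbnl1 was lower. This muscleblind protein, which promotes or represses exons in differentiating muscle and neurons, was at 62.5 CPM in the Ptbp2 knockdown and 134 CPM in the control, a 2.15-fold lower level. Its FPKM was 17.5 (16.7 to 18.3) in the Ptbp2 knockdown and 36.4 (35.2 to 37.7) in the control. In the pair with Ptbp1 depleted, Mbnl1 was at 66.7 CPM in the double knockdown and 124 CPM in the Ptbp1 knockdown. Of the 18 listed regulators of neuronal and muscle splicing that were measured, Mbnl1 alone passed 2-fold by exon reads. In CPM, 12 were below the control, and the median log2 difference was -0.12. By FPKM Nova1 also passed 2-fold, at 4.00 FPKM in the Ptbp2 knockdown and 1.37 FPKM in the control. Its CPM was 30.2 in the Ptbp2 knockdown and 33.7 in the control, so that the measures disagreed in direction. Elavl4, a neuronal RNA-binding protein, was at 262 CPM in the Ptbp2 knockdown and 393 CPM in the control (log2 difference -0.58). Srrm4, the activator of neuronal microexons, was at 25.5 CPM in the Ptbp2 knockdown and 26.0 CPM in the control, and Rbfox2 at 173 CPM in the Ptbp2 knockdown and 185 CPM in the control.

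Ranked by the smaller of the differences in CPM and FPKM, the leading higher gene was Socs2, an inhibitor that cytokine and growth hormone signalling switches on against itself. It was at 114 CPM in the Ptbp2 knockdown and 36.8 CPM in the control, 3.09-fold higher, and at 93.6 CPM in the double knockdown and 41.6 CPM in the Ptbp1 knockdown. Ghr, the growth hormone receptor that Socs2 restrains, was low, at 1.69 CPM in the Ptbp2 knockdown and 4.87 CPM in the control. Ghr passed 2-fold by exon reads only. The other 19 measured genes of the JAK-STAT list stayed within 2-fold, and the median of all 21 was 0.02.

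Genes of catecholamine synthesis differed in opposite directions. Ddc, the decarboxylase that makes dopamine, was at 19.5 CPM in the Ptbp2 knockdown and 7.07 CPM in the control, 2.74-fold higher. Dbh, which turns dopamine into noradrenaline, was at 17.1 CPM in the Ptbp2 knockdown and 46.1 CPM in the control, 2.68-fold lower. Transcription factors of this lineage were above the control without reaching 2-fold, with log2 differences of 0.51 for Phox2a, 0.63 for Gata3 and 0.82 for Gata2. In the pair with Ptbp1 depleted, Dbh was at 48.7 CPM in the double knockdown and 176 CPM in the Ptbp1 knockdown, and Ddc at 18.7 CPM in the double knockdown and 14.5 CPM in the Ptbp1 knockdown. Of the 20 genes of this list, 13 were below the control and the median was -0.11.

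Id4, a helix-loop-helix protein that holds back proneural transcription factors, was at 31.4 CPM in the Ptbp2 knockdown and 11.6 CPM in the control, 2.69-fold higher. It was called in both measures. Its relatives Id2 and Id3 lay below the control, with log2 differences of -0.81 and -0.53. None of the other 14 measured genes of the list of Id, Hes and proneural factors passed 2-fold.

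Genes of the motile cilium were more often above than below the control. Rsph1, a part of the radial spoke of the axoneme, was at 35.9 CPM in the Ptbp2 knockdown and 13.8 CPM in the control, 2.58-fold higher. Cfap74, a protein of the axoneme, was at 45.0 CPM in the Ptbp2 knockdown and 21.8 CPM in the control, and Ankrd45 at 38.5 CPM in the Ptbp2 knockdown and 14.1 CPM in the control. These 3 were called in both measures. Ccdc65 and Ccdc151, factors for the assembly of ciliary dynein complexes, passed 2-fold by exon reads alone and had no more than 2.05 CPM in the Ptbp2 knockdown. Dnah1, a dynein heavy chain, was lower, at 16.7 CPM in the Ptbp2 knockdown and 34.2 CPM in the control. Of 25 measured genes in this list, 16 were above the control and the median was 0.41. By FPKM the list's median was 0.28, and in the double against the Ptbp1 knockdown it was -0.02.

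The clock genes were split. Arntl, which encodes the transcription factor BMAL1, was at 35.5 CPM in the Ptbp2 knockdown and 16.1 CPM in the control, 2.19-fold higher in CPM and called in both measures. Its partner gene Clock was 2.13-fold lower by exon reads (39.1 CPM in the Ptbp2 knockdown and 83.4 CPM in the control), but its FPKM was 12.8 in the Ptbp2 knockdown and 11.6 in the control, so that the measures disagreed in direction. Per1, Cry1 and Cry2, which repress BMAL1 activity, were above the control by 0.85 to 0.99 on the log2 scale. Of the 20 clock genes measured, 12 were below the control in CPM. The list's median log2 difference was -0.12 in CPM but 0.13 by FPKM.

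The interferon list held 3 genes called higher by exon reads and 1 called lower. Psmb8, a subunit of the immunoproteasome, was at 28.7 CPM in the Ptbp2 knockdown and 14.3 CPM in the control, just at 2-fold, and its FPKM was 8.01 in the Ptbp2 knockdown and 1.22 in the control. Oas1b and Ifih1, which sense double-stranded RNA, were at 4.98 and 5.78 CPM in the Ptbp2 knockdown and 1.91 and 2.25 CPM in the control. By FPKM, Oas1b and Ifih1 fell short of 2-fold, with log2 differences of 0.73 and 0.66. The chemokine Cxcl10 was at 5.24 CPM in the Ptbp2 knockdown and 10.9 CPM in the control. The median of the 22 genes was 0.06, and in the double against the Ptbp1 knockdown it was -0.39.

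The remaining genes called higher in both measures had varied roles. Lix1 was at 68.2 CPM in the Ptbp2 knockdown and 28.0 CPM in the control, and at 60.5 CPM in the double knockdown and 26.3 CPM in the Ptbp1 knockdown. Arid3a, a DNA-binding regulator, was at 46.5 CPM in the Ptbp2 knockdown and 18.6 CPM in the control. Map1lc3a, which coats autophagosomes, was at 28.1 CPM in the Ptbp2 knockdown and 13.6 CPM in the control. The co-repressor Tgif2 and the tumour suppressor Tusc2 were at 16.2 and 19.3 CPM in the Ptbp2 knockdown, against 7.13 and 8.51 CPM in the control. Ccnjl and Etfbkmt had the largest fold values among these 15 genes, 4.55 and 3.87 in CPM. They were low in both libraries, at 2.34 and 2.95 FPKM in the Ptbp2 knockdown and 0.475 and 0.811 FPKM in the control.

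Next to Ptbp2 itself, the leading lower gene in the same ranking was Mpc1. This gene, which encodes a subunit of the mitochondrial pyruvate carrier, was at 45.8 CPM in the Ptbp2 knockdown and 139 CPM in the control, 3.04-fold lower, while in FPKM the Ptbp2 knockdown lists it at 0 and the control at 14.1. An FPKM of 0 beside that many exon reads cannot be taken at face value, so the call and the rank of Mpc1 rest on exon reads alone. Pdha1, a subunit of the pyruvate dehydrogenase that acts downstream of the carrier, was at 169 CPM in the Ptbp2 knockdown and 358 CPM in the control. Gdap1, a protein of the outer mitochondrial membrane, was at 13.6 CPM in the Ptbp2 knockdown and 50.6 CPM in the control. In the list of glycolysis and pyruvate handling, Pdk1 and Aldoc also passed 2-fold by exon reads. Of its 31 measured genes, 25 were below the control, with a median of -0.12.

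Lower receptors included Ngfr, the p75 neurotrophin receptor, at 55.7 CPM in the Ptbp2 knockdown and 176 CPM in the control, 3.16-fold lower. Chrna7, a nicotinic acetylcholine receptor subunit, was at 12.9 CPM in the Ptbp2 knockdown and 39.8 CPM in the control, 3.08-fold lower. The glutamate receptor genes Gria2 and Grin1 passed 2-fold by exon reads alone, at 5.58 and 16.2 CPM in the Ptbp2 knockdown and 11.4 and 32.9 CPM in the control, and fell just short of it with each of the other scalings. With Chrna7 they were the 3 called among 24 postsynaptic genes, whose median was -0.29. In the neurotrophin list, 7 of 9 genes were below the control and Ngfr alone was called.

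Synaptic vesicle genes were mostly below the control. Cplx2, a complexin that clamps the fusion machinery, was at 15.2 CPM in the Ptbp2 knockdown and 34.9 CPM in the control. It was called in both measures, and the vesicle proteins Sv2c and Syn2 passed 2-fold by exon reads, at 32.1 and 108 CPM in the Ptbp2 knockdown and 76.1 and 220 CPM in the control. Of 32 genes, 28 were below the control (87.5%), and the median was -0.39. Stx1a and Syngr3 lay above the control, by 0.32 and 0.33 on the log2 scale. Syn2 did not follow in the other pair, at 230 CPM in the double knockdown and 198 CPM in the Ptbp1 knockdown.

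Among structural proteins, Sptbn1, the β-II spectrin of the membrane skeleton, was at 221 CPM in the Ptbp2 knockdown and 660 CPM in the control, 2.98-fold lower, and by FPKM the gap was wider, at 20.8 in the Ptbp2 knockdown and 107 in the control. It was the 1 called gene among 16 of the membrane skeleton, of which 15 were below the control. Map1b, a large microtubule-associated protein of growing axons, was at 840 CPM in the Ptbp2 knockdown and 1730 CPM in the control, and Map1lc3a, a small protein that associates with it, was the 1 gene of that list called higher. Among genes of axon growth and adhesion, Cntnap2 was called higher by exon reads at a low level, 4.60 CPM in the Ptbp2 knockdown and 1.17 CPM in the control. The medians were -0.32 for the membrane skeleton, -0.36 for microtubules and transport, and -0.15 for axon growth and adhesion.

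Genes of lipid synthesis lay mostly below the control. Cyp51, the lanosterol demethylase, was at 104 CPM in the Ptbp2 knockdown and 307 CPM in the control, 2.96-fold lower, and Tm7sf2, a sterol reductase, at 5.94 CPM in the Ptbp2 knockdown and 13.4 CPM in the control. These 2 were called in both measures, while 24 of 25 genes of cholesterol synthesis and uptake lay below the control, with a median of -0.39. Of 13 genes of fatty acid synthesis, 12 were below the control (median -0.40), and none was called. In the double against the Ptbp1 knockdown the medians of these 2 lists were -0.28 and -0.18.

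Genes of the matrix and of adhesion to it also lay mostly below the control. Ltbp3, which stores latent TGF-β in the matrix, was at 10.4 CPM in the Ptbp2 knockdown and 32.6 CPM in the control, and at 23.6 CPM in the double knockdown and 74.4 CPM in the Ptbp1 knockdown. Itga1, an integrin for collagen, passed 2-fold by exon reads, at 28.2 CPM in the Ptbp2 knockdown and 66.7 CPM in the control. Of 25 cell-matrix genes, 22 were below the control, with a median of -0.36. Sspn, a membrane protein of the dystrophin complex, was 5.16-fold lower, at 2.20 CPM in the Ptbp2 knockdown and 11.7 CPM in the control. The thioesterase Lypla1 was at 27.7 CPM in the Ptbp2 knockdown and 104 CPM in the control, and Pi16 at 28.4 CPM in the Ptbp2 knockdown and 71.7 CPM in the control. Taf9b, a subunit of transcription initiation complexes, and Pgap1, which trims GPI anchors, were at 2.09 and 5.80 CPM in the Ptbp2 knockdown, against 9.27 and 14.9 CPM in the control. Fbxw4 and Pcdhgb1 were also among the 15 named lower genes. Both have an FPKM of 0 in the Ptbp2 knockdown, which, as for Mpc1, cannot be taken at face value. Like Mpc1, they are still counted among the 82 lower genes called in both measures. Pcdhgb1 also shares exons with other genes of its cluster, so its reads cannot be assigned with certainty.

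Genes of growth and stress differed little. No gene of the actin (36), Wnt (20), unfolded protein and amino acid stress (30) or cell cycle (46) lists passed 2-fold, and their medians lay between -0.11 and 0.04. Of 78 cytosolic ribosomal protein genes, 72 were above the control with a median of 0.24, and none passed 2-fold. By FPKM that median was 0.12, and reads of these genes can be shared with processed pseudogenes. All of these lists were chosen with earlier results of these data known, and their counts describe 1 library against 1.

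**Figure D3:**
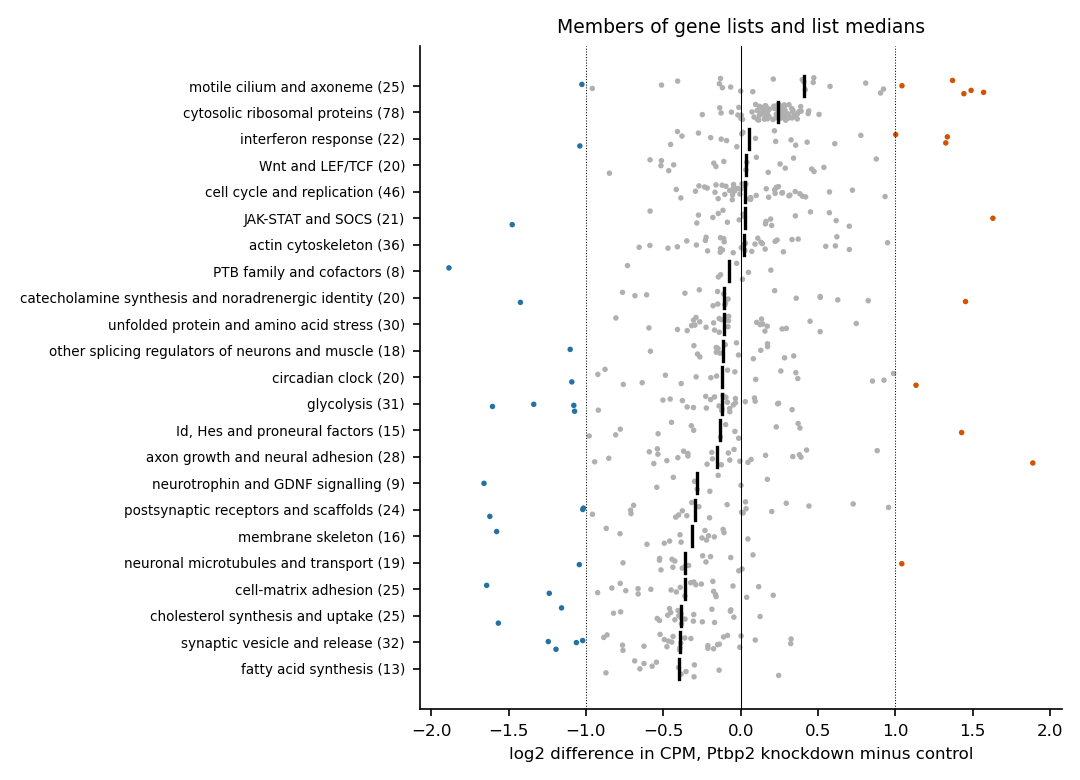
Log2 difference in CPM, Ptbp2 knockdown minus control, for each measured member (points) and the median (black bars) of the gene lists, with the number of measured genes in brackets. Orange and blue points passed 2-fold, which dotted lines mark. List medians run from -0.40 for fatty acid synthesis to 0.41 for the motile cilium.

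At the level of exons, loss of inclusion was more frequent than gain. Junction inclusion, the share of junction reads that join the middle exon to its neighbours, was measured for 100983 exons with at least 20 such reads in both libraries. A difference of 20 percentage points was called for 36 exons that were higher (0.0356%) and 142 that were lower (0.141%) in the Ptbp2 knockdown. With the deposited inclusion ratio also different by 0.2, 25 were higher (0.0248%) and 97 lower (0.0961%). Among 2873 exons at 10 to 90% inclusion in the control, 23 were higher (0.801%) and 84 lower (2.92%) in both measures. The 95% Wilson intervals of the 2 libraries did not overlap for 80 of the 97 lower and 16 of the 25 higher exons.

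The lower exons were mostly included in the control. Of the 97, 87 were at 50% or more and 38 at 80% or more in the control, and 62 were under 50% in the Ptbp2 knockdown. Their median inclusion was 41.0% in the Ptbp2 knockdown and 74.1% in the control. The 25 higher exons had a median of 66.0% in the Ptbp2 knockdown and 41.5% in the control. These levels are partly set by the call, which used the same values. A lower exon had to start high enough in the control to lose inclusion, and a higher exon low enough to gain it. Among all 2873 exons at 10 to 90% in the control, the median was 64.2% in the Ptbp2 knockdown and 69.8% in the control.

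The largest loss was that of the 63-nt Epb41l2 exon (mm9 chr10:25213373-25213435), in the gene of a protein 4.1 that ties spectrin and actin to the membrane. It was included in 22.3% (17.5 to 28.0) of junction reads in the Ptbp2 knockdown and 89.6% (85.7 to 92.5) in the control. With Ptbp1 depleted it was at 78.7% in the double knockdown and 94.3% in the Ptbp1 knockdown. Itga6, an integrin subunit for laminin, holds a 130-nt exon (chr2:71691591-71691720) that selects between its known cytoplasmic tails. Its inclusion was 28.7% (25.3 to 32.5) in the Ptbp2 knockdown and 86.2% (83.6 to 88.4) in the control, and 81.3% in the double knockdown and 91.7% in the Ptbp1 knockdown. Both exons were lower in the Ptbp2 knockdown than in each of the other 3 libraries.

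The 18-nt exon of Dst (chr1:34353587-34353604), a giant linker of cytoskeletal filaments, was at 34.9% (30.9 to 39.2) in the Ptbp2 knockdown and 93.7% (89.9 to 95.6) in the control. It was at 67.5% in the double knockdown and 94.3% in the Ptbp1 knockdown. The 42-nt exon of Numa1 (chr7:109150809-109150850), an organiser of the mitotic spindle poles, was at 32.1% (27.8 to 36.7) in the Ptbp2 knockdown and 84.4% (80.9 to 87.3) in the control. In the other pair it was at 70.1% in the double knockdown and 92.3% in the Ptbp1 knockdown. These exons were thus lower with the Ptbp2 shRNA on both Ptbp1 backgrounds, by 58.8 and 52.2 points against the control and by 26.8 and 22.1 points with Ptbp1 depleted.

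Git2, a scaffold and GTPase-activating protein for Arf, was lower in the other pair as well. Its 90-nt exon (chr5:115187357-115187446) was at 16.8% (11.9 to 23.9) in the Ptbp2 knockdown and 57.8% (49.6 to 65.9) in the control, and at 23.5% in the double knockdown and 70.3% in the Ptbp1 knockdown. The 84-nt exon of Lef1 (chr3:130893941-130894024), a transcription factor that carries the Wnt signal, was below 50% in the Ptbp2 knockdown alone. It was at 26.3% (15.0 to 42.0) in the Ptbp2 knockdown and 82.0% (68.0 to 90.5) in the control, but at 81.5% in the double knockdown and 84.1% in the Ptbp1 knockdown. The Lef1 values rest on few reads, which its wide intervals show.

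The 15 lower and 15 higher exons described in most detail are those furthest from the control when each exon is ranked by the smaller of its 2 differences, in junction inclusion and in the deposited ratio, so that some exons outside them differed more in junction inclusion alone. The other exons among the 15 lower ones had between 15.9% and 36.4% inclusion in the Ptbp2 knockdown and between 53.4% and 83.3% in the control. Those of Slmap, Arhgef12 and Limch1, with 63, 57 and 36 nt, lost 54.2, 54.5 and 53.5 points. The exons of Mdm1 (30 nt) and Smpd4 (87 nt) were lower in the double than in the Ptbp1 knockdown as well, by 26.0 and 31.3 points. Tbc1d24, a regulator of vesicle traffic, has an 18-nt exon that was at 31.3% in the Ptbp2 knockdown and 74.1% in the control, and at 97.8% in the double knockdown and 88.9% in the Ptbp1 knockdown. The remaining exons lay in Crtc2, Lrrfip2 and Golga2.

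**Figure D4:**
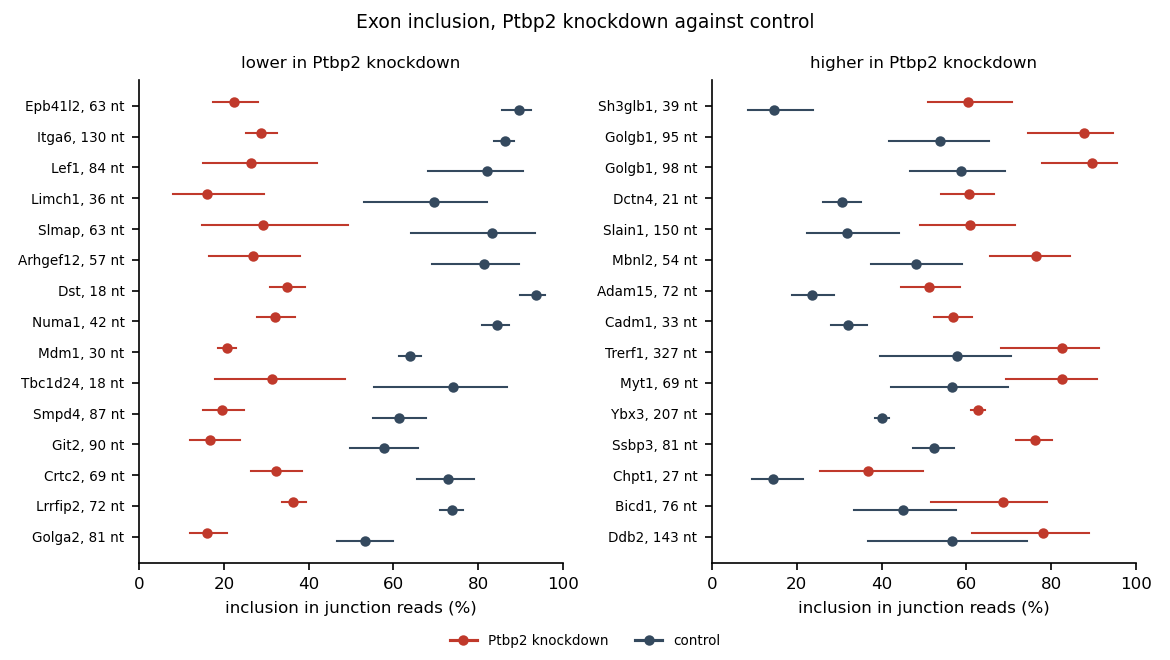
Inclusion, in percent of junction reads, of 15 lower (left) and 15 higher exons (right) called in both measures, those that rank first by the smaller of their differences in junction inclusion and in the deposited ratio. Red points are the Ptbp2 knockdown and dark points the control, 1 library each, with 95% Wilson intervals. The intervals overlap for the exons of Trerf1, Myt1, Bicd1 and Ddb2.

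Fewer exons gained inclusion. The 39-nt exon of Sh3glb1 (chr3:144364772-144364810), which encodes a membrane-curving protein of endosomes and autophagy, was at 60.5% (50.9 to 70.9) in the Ptbp2 knockdown and 14.6% (8.57 to 23.9) in the control. It was at 72.8% in the double knockdown and 34.5% in the Ptbp1 knockdown. The 54-nt exon of the muscleblind gene Mbnl2 (chr14:120794934-120794987), of a kind known to keep these proteins in the nucleus, was at 76.5% (65.6 to 84.5) in the Ptbp2 knockdown and 48.1% (37.6 to 58.9) in the control. In the other pair it was at 83.4% in the double knockdown and 53.4% in the Ptbp1 knockdown. Mbnl2 mRNA stood at 46.7 CPM in the Ptbp2 knockdown and 51.8 CPM in the control.

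The 33-nt exon of Cadm1 (chr9:47637460-47637492), a synaptic adhesion molecule, was at 56.9% (52.3 to 61.4) in the Ptbp2 knockdown and 32.1% (28.2 to 36.6) in the control. Adam15, a membrane metalloprotease, has a 72-nt exon that was at 51.2% in the Ptbp2 knockdown and 23.5% in the control, and at 55.1% in the double knockdown and 27.5% in the Ptbp1 knockdown. Of the 15 higher exons that rank first by the smaller of both differences, the 207-nt exon of Ybx3 had the most reads. Ybx3 encodes a cold-shock RNA-binding protein, and the exon was at 62.7% (61.1 to 64.3) in the Ptbp2 knockdown and 40.1% (38.4 to 41.8) in the control. By the smaller inclusion junction alone the exons of Cadm1 and Adam15 gained 13.7 and 10.3 points. Slain1 (150 nt), Ssbp3 (81 nt) and Chpt1 (27 nt) gained 29.0, 23.9 and 22.3 points. The pair of Golgb1 exons, of 95 and 98 nt, overlap and share reads. The 21-nt Dctn4 exon was at 60.7% in the Ptbp2 knockdown and 30.6% in the control, but its downstream inclusion junction held no reads in either library.

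Genes known to carry PTB-responsive exons were examined by name. Of 44 listed genes with a measured exon, 8 had an exon called in both measures (18.2%), against 116 of all 9913 genes (1.17%). The list was chosen with results of these data known and is not matched on exon number or depth, so the shares are a description. Besides Epb41l2 and Itga6, the 8 were Gabbr1, Dlg4, Exoc7, Mapt, Ptbp2 and Numb.

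Gabbr1 encodes a subunit of the GABA-B receptor, and Dlg4 the postsynaptic scaffold PSD-95. The 151-nt Gabbr1 exon (chr17:37204159-37204309) was at 27.5% (18.4 to 39.0) in the Ptbp2 knockdown and 62.8% (54.1 to 70.9) in the control, while the 110-nt Dlg4 exon (chr11:69857160-69857269) was at 26.3% (22.0 to 31.0) in the Ptbp2 knockdown and 47.3% (42.2 to 52.4) in the control. Exoc7, a subunit of the exocyst that tethers secretory vesicles, behaved alike with its 93-nt exon (chr11:116158885-116158977), at 29.4% (24.4 to 35.0) in the Ptbp2 knockdown and 55.1% (49.1 to 60.4) in the control. None of these 3 exons was lower in the double than in the Ptbp1 knockdown, where the differences were 2.80, 15.1 and 6.62 points. In the order Gabbr1, Dlg4 and Exoc7, they were at 96.4%, 86.0% and 90.1% in the double knockdown. In the Ptbp1 knockdown they were at 93.6%, 70.9% and 83.5%. All of these levels were above the control. At the gene level Dlg4 was at 75.9 CPM in the Ptbp2 knockdown and 75.1 CPM in the control, and Gabbr1 at 28.4 CPM in the Ptbp2 knockdown and 37.0 CPM in the control, so neither passed 2-fold. By the smaller inclusion junction alone the Dlg4 exon differed by -17.1 points.

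In Mapt, which encodes the microtubule-associated protein tau, an 87-nt exon of the amino-terminal part was at 7.87% in the Ptbp2 knockdown and 28.1% in the control, and at 18.2% in the double knockdown and 49.2% in the Ptbp1 knockdown. It was thus lower with the Ptbp2 shRNA in both pairs. By the smaller of its inclusion junctions alone, the difference between the Ptbp2 knockdown and the control was -3.19 points, short of 20 points.

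Ptbp2 showed a difference in its own RNA. Its 34-nt exon (chr3:119427530-119427563), which must be included for the full protein, was at 42.7% (32.9 to 53.1) in the Ptbp2 knockdown and 72.2% (67.0 to 76.9) in the control. It was at 84.5% in the double knockdown and 94.5% in the Ptbp1 knockdown. Numb, which restrains Notch signalling, had a 147-nt exon (chr12:85138147-85138293) at 46.1% (37.3 to 55.2) in the Ptbp2 knockdown and 20.2% (13.9 to 28.3) in the control. It stayed at 14.0% in the double knockdown and 13.4% in the Ptbp1 knockdown. Other exons passed 20 points by junction reads without reaching 0.2 in the deposited ratio, a 39-nt exon of Exoc7, a 24-nt exon of the actin cross-linker filamin A (Flna) and a 33-nt exon of the calcium channel gene Cacna1c. Their losses were 20.3, 20.9 and 25.9 points.

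Length and position were not used to call exons. Length is given beside that of other exons, with no test. The 97 lower exons had a median length of 90 nt and 61 of them (62.9%) were multiples of 3, as were 17 of the 25 higher exons (68.0%, median 101 nt). Among all 2873 exons at 10 to 90% in the control the share was 52.0% and the median 105 nt, and among all measured exons 38.9% and 122 nt. Of the lower exons, 80 lay wholly in coding sequence, 10 partly, 5 in untranslated regions and 2 in noncoding transcripts. Where several transcripts matched an exon, the most coding match was kept. Position was not determined for exons that were not called, so these counts have no background. Exons of at most 27 nt made up 7 of the 97 (7.22%), against 4.73% of the exons at 10 to 90%. These 7, listed after their values were seen, lay in Dst, Tbc1d24, Inpp4a, Kifc3, Pcnt, Incenp and Picalm. A few exons of 1 gene called in both measures overlap and share reads, namely those of Golgb1, Cbarp and Celsr3. Among the 142 exons called lower by junction inclusion, those of Nfya, Cldnd1 and Camta2 also overlap.

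Of all genes, 1.89% were called lower and 0.706% higher in level by exon reads, and the genes with a called lower exon had lower calls at a share near this background. The 35 genes with a lower exon whose length is not a multiple of 3 had a median log2 difference of -0.12 in gene CPM, and only Ptbp2 was called lower. The 58 genes with a lower frame-keeping exon had a median of 0.05, with Ndrg2 called lower. Of the genes with a higher exon, none was called. Other kinds of splicing event were counted by the deposited ratio alone. Of 852 retained introns, 22 were higher and 14 lower by 0.2 in the Ptbp2 knockdown. Alternative 5′ splice sites gave 31 in each direction of 2294, and alternative 3′ splice sites 62 higher and 61 lower of 3783.

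The double and the Ptbp1 knockdown form a pair that also differs by the Ptbp2 shRNA and shares no library with the main comparison. The libraries with and without the Ptbp2 shRNA also fall in separate blocks of sample numbers. In both pairs, loss of Ptbp2, any other effect of its shRNA and any difference between these blocks cannot be told apart. All 82 genes that were lower in both measures were lower in the double than in the Ptbp1 knockdown, and 31 of them (37.8%) passed 2-fold by exon reads. In that pair 47.3% of all 10860 measured genes were below, and 184 were called lower (1.69%). Of the 15 higher genes, 14 were above in that pair and 3, Socs2, Ankrd45 and Lix1, passed 2-fold, where 14 of all genes did (0.129%). Psmb8 was the exception, with a log2 difference of -0.23.

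Of the 97 lower exons, 92 were measured in the other pair. There, 70 (76.1%) were lower in the double than in the Ptbp1 knockdown and 26 (28.3%) by at least 20 points, while 1 was higher by that size and 41 differed by less than 10 points. Among 2808 exons at 10 to 90% in the control, 51.1% were lower in that pair and 2.88% were called lower, and over all 100166 exons measured 122 were called lower (0.122%) and 126 higher (0.126%). Of 23 higher exons measured there, 20 (87.0%) were above and 9 (39.1%) passed 20 points. Of the 92 lower exons, 14 were at least 20 points higher in the Ptbp1 knockdown than in the control, and 10 were at least 20 points lower. The share of all exons that differed so between the Ptbp1 knockdown and the control is not given here. Of the 14, 3 were called lower in the double against the Ptbp1 knockdown.

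**Figure D5:**
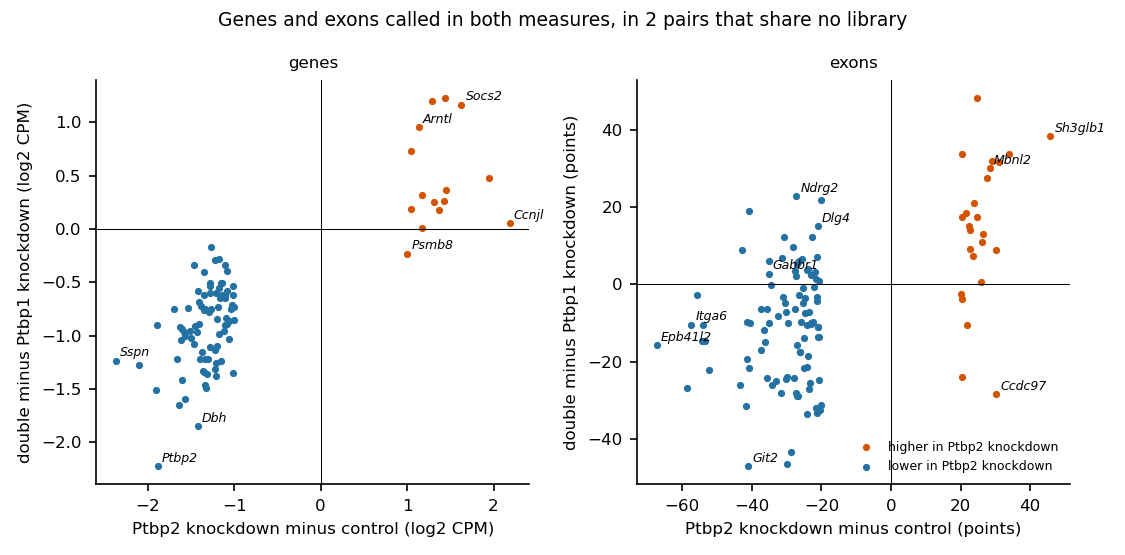
Difference in the double minus the Ptbp1 knockdown (vertical axes) against the difference in the Ptbp2 knockdown minus control (horizontal axes), for genes (left, log2 CPM) and exons (right, percentage points) called in both measures. Orange marks those higher and blue those lower in the Ptbp2 knockdown. All 82 lower genes fall below the horizontal line, whereas 22 of 92 lower exons lie above it.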

How the data were processed

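Poly(A) RNA of 4 N2A libraries was analysed, 1 per group. Per the submitters' processing notes, CASAVA, TopHat and Cufflinks were used with mm9, with no version given in the sources used here. Gene levels were deposited as FPKM with 95% intervals. They were rescaled here by each library's sum of FPKM times length. Per the file headers, the deposited splicing tables (SpliceTrap) give for each of 228333 events an inclusion ratio, a fraction of transcripts with the middle exon, read counts of junctions, and a coverage signal per exon (100 × reads / size). The deposited transcript files hold a score that was not used. Exon reads were recovered from coverage, summed over unique exons per gene and scaled by median of ratios, with factors of 0.968 for the Ptbp2 knockdown and 1.01 for the control. Overlapping exons can count the same read again. Log2 differences use CPM + 0.1 and FPKM + 1. Of 218362 cassette trios, 98.9% were named, by splice sites of RefSeq transcripts or by structure in GENCODE vM21. Each middle exon counts once, as the trio with the most junction reads. Coordinates are 1-based on mm9.

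Named genes are the PTB family, the 15 furthest from control each way among those called in both measures, ranked by the smaller of their 2 differences and without predicted genes, and called members of the lists. Genes whose levels are given without a call, outside the PTB family and its partners, were chosen after their values were seen. Named exons are the 15 in each direction, ranked likewise by junction inclusion and the deposited ratio, and called exons of listed genes. Members and lists were chosen with earlier results of these data known. A few genes and an exon that these rules name are not reported here. Intron motifs were not analysed here. The calls were checked on simulated counts. Python 3.11.15, pandas 2.3.3 and statsmodels 0.14.6 were used. Alternatives in scaling, pseudocount, minimum level, junction rule and interval rule were tried.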

Additional observations from a re-analysis of the deposited data

Results flagged for a closer look

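Exons called in opposite directions in the pairs of libraries with and without the Ptbp2 shRNA were singled out. The difference between the pairs was not tested, and each group held 1 library. A 42-nt exon of Ndrg2 was 27.2 points lower in the Ptbp2 knockdown than in the control (a difference of -27.2 points) and 22.8 points higher in the double than in the Ptbp1 knockdown. A 196-nt exon of Abcc10 had differences of -20.6 and 22.2 points in these pairs, and a 105-nt exon of Clip2 -20.6 and 24.9 points. A 135-nt exon of Ccdc97 had differences of 30.3 and -28.3 points. Between the Ptbp2 knockdown and the control, the intervals overlapped for the exons of Ndrg2, which had 20 junction reads in the Ptbp2 knockdown, Abcc10 and Clip2, and the exons of Abcc10 and Clip2 were called by junction inclusion alone. No gene was called in opposite directions in the 2 pairs.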

How the results depend on the processing

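Each group held 1 library, so that every call rests on 1 library against 1, leaving out a replicate was impossible, and depth limits the exons with few junction reads. No paired analysis was possible because each group held 1 library, so that no groups share more than 1 replicate number. A fit over all 4 libraries that takes the effect of the Ptbp2 shRNA as equal with and without the Ptbp1 shRNA was not run. The 77 higher and 206 lower genes were 86 and 181 with scaling by total exon reads, and 86 and 180 with upper quartile scaling. Higher genes numbered 151 with no minimum level, 35 with a minimum of 5 CPM, 34 with a pseudocount of 1 CPM and 134 by FPKM, of which 13 were also among the 77. Lower genes numbered 135 with a pseudocount of 1 CPM and 239 by FPKM, of which 79 were also among the 206. The 36 higher exons became 17 with 50 junction reads, 75 with 10, 58 by the smaller inclusion junction, 22 where intervals had to be apart and 321 by the deposited ratio. The 142 lower exons became 483 by the deposited ratio, and ranged from 97 to 211 under the other rules. Of the 54 named genes, 17 fell short of 2-fold by FPKM, and Clock changed sign, at 0.14. Dnah1, Syn2, Gria2 and Grin1 fell just short of 2-fold with each of the other scalings, and 10 named genes fell short with a pseudocount of 1 CPM. By the smaller junction, 29 named exons passed 20 points and 7 did not, among them that of Dctn4 with a difference of 0, while those of Slmap, Tbc1d24 and Cacna1c had too few such reads to be measured. The causes were not tested.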
